A study of Mus musculus with 25 samples.

Results

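The genes described are 9 components of activin signalling measured in the mouse pituitary: the type II receptors Acvr2a and Acvr2b, the type I receptors Acvr1b and Acvr1c, the receptor-regulated SMADs Smad2 and Smad3, the common SMAD Smad4 and the inhibitory SMADs Smad6 and Smad7. They were chosen by symbol from a table of 47069 genes, and each symbol had 1 row. The 25 animals were hypogonadal hpg mice, homozygous for a deletion that leaves them without gonadotropin-releasing hormone (GnRH), and no animal with its own GnRH was included. They received 1 µg GnRH or saline (the placebo group) by daily intraperitoneal injection over 10 days, and whole pituitaries were taken 1 h after the last dose. The groups were placebo females (n = 5, animals 1 to 5), GnRH females (n = 6, animals 6 to 11), placebo males (n = 6, animals 12 to 17) and GnRH males (n = 8, animals 18 to 25). Ages were not among the labels used here.

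Activins are dimers of inhibin beta subunits. They bind a type II receptor, which phosphorylates and so activates a type I receptor, and that receptor phosphorylates SMAD2 and SMAD3. The phosphorylated SMADs join SMAD4, enter the nucleus and bind DNA together with other factors. SMAD7 and SMAD6 block the pathway at the receptors. In gonadotropes, the pituitary cells that make the gonadotropins, activin signalling is a known driver of the gene for the beta subunit of follicle-stimulating hormone (FSH), Fshb, with which the study's title is concerned. Much of this pathway works by phosphorylation and nuclear transport, which transcript levels do not report.

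Values are regularized log2 values, in which a difference of 1 is a doubling and differences of genes with few reads are shrunken. Library medians lay between 8.09 and 8.13 over the genes tested, and the depth of the libraries is unknown. The tissue's own hormones were abundant: group means were 21.4 to 21.6 for growth hormone (Gh), 17.2 to 17.6 for prolactin (Prl) and 18.0 to 18.7 for Pomc of corticotropes and melanotropes. Fshb checked the treatment and was higher with GnRH by 2.07 in females and 2.77 in males (adjusted p = 0.000347 and 1.52e-07, limma). The pituitary is a mixture of cell types, so in these bulk samples fewer cells of a type and less RNA per cell cannot be told apart.

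All 9 genes lay above the minimum mean of 3 set for testing, and none was lost to that filter. On the scale of log2 value per kilobase of exon, Smad4 was highest with a mean of 8.09 ± 0.18 (SD, n = 25). Acvr1b followed at 7.54 ± 0.10 and Smad3 at 7.50 ± 0.18. This neighbouring pair was not separated, since Acvr1b was above Smad3 in 14 of 25 libraries and their mean difference per length was 0.03 with an SD of 0.15. Acvr2a at 6.37 ± 0.15 and Smad7 at 6.35 ± 0.12 were not separated either, with Acvr2a the higher in 11 of 25 libraries.

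At the lower end of the per-length scale stood Smad6 at 5.88 ± 0.14, Smad2 at 5.52 ± 0.17, Acvr1c at 4.89 ± 0.25 and Acvr2b at 4.31 ± 0.12 (SD, n = 25). Each of these lay below the gene before it in 24 or 25 of 25 libraries. The scale uses 1 fixed exon length per gene, so agreement between libraries does not test that length. Within each receptor class 1 gene led: the level per length of Acvr2a was above that of Acvr2b, and that of Acvr1b above that of Acvr1c, with no overlap over the 25 libraries. Of the receptor-regulated SMADs, Smad3 was above Smad2 in the same way. Without division by length the order changed: Smad2 (mean 8.66) stood above Smad7 (8.53), and Smad2 and Acvr1c (8.11) above Smad6 (7.56). Acvr2b still had the lowest mean of the 9, 6.28, and 30.3% of the genes tested lay below it.

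**Figure D1:**
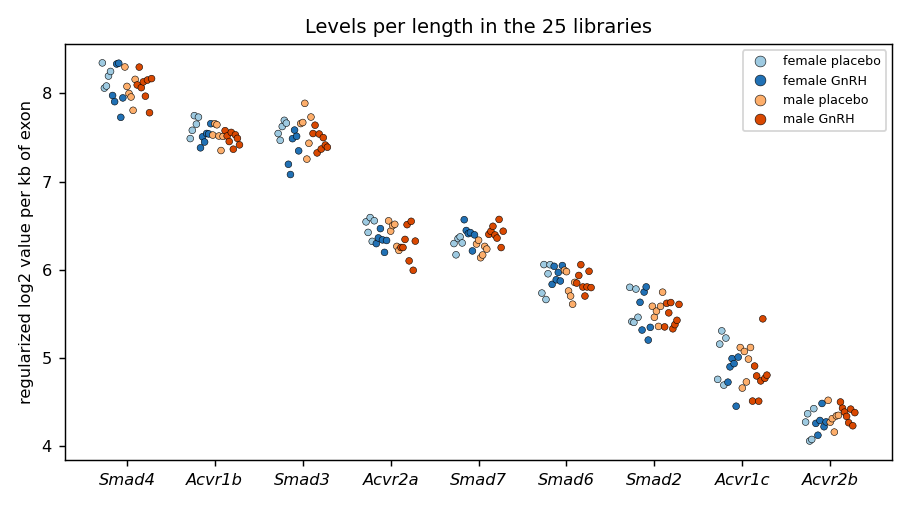
Levels per length of the 9 genes, with 1 point per library (regularized log2 value per kilobase of exon, vertical axis) and genes ordered by mean on the horizontal axis; colours mark the 4 groups. Acvr1b and Smad3, and Acvr2a and Smad7, overlap in their ranges, and Smad3 and Acvr2a do not.

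GnRH against placebo asked whether these transcripts differ in each sex 1 h after the last of the daily injections over 10 days. A response to the last dose and an effect of the earlier doses cannot be told apart in this design. None of the 9 genes passed the threshold of 0.05 (limma, Benjamini-Hochberg adjusted p over 19141 genes) in females, where 0.0993% of all genes tested passed, all of them higher. None passed in males, where 0.496% did, and none in the effect averaged over the sexes, where 1.71% did. At an unadjusted p under 0.05 the counts were 2, 1 and 4 of the 9 genes, against 9.57%, 6.42% and 12% of all genes tested. The GnRH and placebo groups overlapped for all 9 genes in both sexes, and 0.768% of all genes in females and 0.402% in males had groups that did not overlap.

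The differences were small as well as uncalled. Over the 9 genes the median log2 difference was -0.13 in females and -0.05 in males, against 0.0003 and -0.0022 over all genes tested. The difference was negative for 6 of 9 genes in females and 5 of 9 in males, against 49.9% and 51.5% of all genes tested. Across the 9 genes the 95% confidence intervals spanned folds of 0.717 to 1.18 in females, 0.761 to 1.22 in males and 0.781 to 1.17 for the average of the sexes, on the regularized scale.

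**Figure D2:**
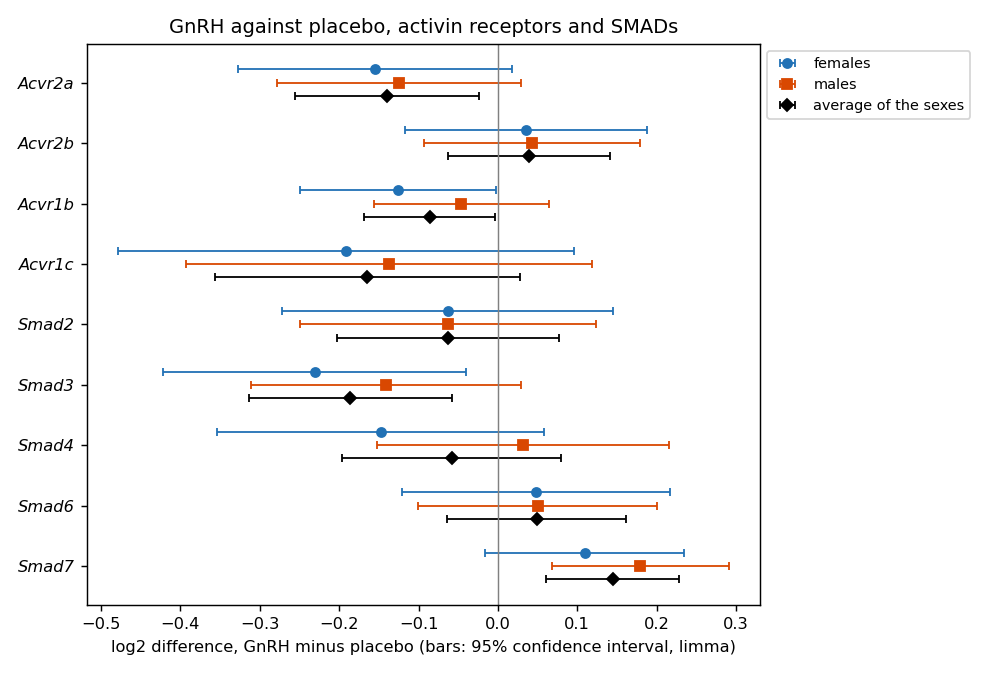
Log2 difference of GnRH minus placebo (horizontal axis) for each of the 9 genes in females, in males and averaged over the sexes; bars are 95% confidence intervals from limma. Smad7, Smad6 and Acvr2b have their points right of 0, and Smad3, Smad2, Acvr2a, Acvr1b and Acvr1c have theirs left of 0. Smad4 has points on both sides, and every point lies within 0.25 of 0.

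Acvr2a encodes ActRIIA, a type II receptor that binds activins and other ligands of the family; it lies at chr2:48814109-48903269 on the plus strand (mm10, GENCODE M21). Its placebo females measured 9.05, 8.93, 9.10, 8.83 and 9.06, and its GnRH females ran from 8.71 to 8.97 with a median of 8.84. All 6 GnRH females were below the placebo mean, 2 of them below every placebo animal. The log2 difference for Acvr2a was -0.16 (SE 0.08, adjusted p = 0.571, limma), whereas an exact two-sided permutation test, 1 of 36 run on single genes and unadjusted, gave p = 0.0390. Of the 36 tests, 3 gave p under 0.05, for Acvr2a and Smad3 in females and Smad7 in males. In males Acvr2a ran from 8.73 to 9.06 (median 8.98) in placebo and from 8.50 to 9.06 (median 8.80) in GnRH animals. The male ranges nearly coincided at the top, and the log2 difference was -0.12 (SE 0.08, adjusted p = 0.902, limma; exact permutation p = 0.196). Acvr2a overlaps Orc4, a gene on the opposite strand, and the strand setting of the counting is not given in the sources used here, so its value is uncertain to that extent.

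Acvr2b encodes ActRIIB, the other activin type II receptor (chr9:119402118-119434995, plus strand). Its group means lay between 6.21 and 6.34, and the difference was 0.04 in females (adjusted p = 0.897, limma) and 0.04 in males (adjusted p = 0.999). Averaged over the sexes its 95% confidence interval was -0.06 to 0.14. Its sign in females turned when placebo animal 3 or 4 or GnRH animal 9 was left out.

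The upstream sequences of Acvr2a and Smad3 are printed because these 2 had the lowest unadjusted p of the GnRH effect averaged over the sexes (0.0196 and 0.0060) among the 6 genes for which RefSeq's table gave a window. Each is the 250 bases before the transcription start in GRCm38.p6, and capitals mark CCGCCC or its reverse complement GGGCGG, the core of a GC box. Acvr2a, chr2:48813859-48814108, plus strand, and Smad3, chr9:63757995-63758244, minus strand, read as follows, 5′ to 3′.
Acvr2a: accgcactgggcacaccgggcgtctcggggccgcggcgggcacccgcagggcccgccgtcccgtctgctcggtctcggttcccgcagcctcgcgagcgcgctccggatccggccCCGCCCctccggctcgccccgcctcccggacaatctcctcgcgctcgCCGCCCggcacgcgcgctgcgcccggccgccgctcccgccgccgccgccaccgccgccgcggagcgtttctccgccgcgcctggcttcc
Smad3: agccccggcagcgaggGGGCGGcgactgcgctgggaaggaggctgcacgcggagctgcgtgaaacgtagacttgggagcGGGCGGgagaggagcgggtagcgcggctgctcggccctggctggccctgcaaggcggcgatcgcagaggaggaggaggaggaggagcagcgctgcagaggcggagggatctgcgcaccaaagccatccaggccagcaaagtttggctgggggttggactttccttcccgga

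Both windows are rich in G and C, 82% in Acvr2a and 69.2% in Smad3, against a median of 52.4% over 32851 windows of the same length. The 6 genes had 7 windows, of which 6 held CCGCCC on either strand, with at least 1 such window for each gene, and 32.7% of all windows held it. The AP-1 motif TGANTCA was in 0 of the 7 windows and 6.75% of all, the cyclic AMP response element TGACGTCA in 0 and 1.55%, and the palindromic SMAD motif GTCTAGAC in 0 and 0.167%. None of these motifs contains another, and a match or its lack describes only these 250 bases.

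Acvr1b encodes ALK4, the principal activin type I receptor (chr15:101174067-101213684, plus strand). In placebo females it measured 9.63, 9.73, 9.89, 9.80 and 9.87, and in GnRH females 9.53 to 9.80 with a median of 9.67. Of the 6 GnRH females 5 were below the placebo mean, and 2 below every placebo animal. The difference of -0.13 (SE 0.06) had an unadjusted p of 0.0457 and an adjusted p = 0.512 with limma. In males, placebo animals ran from 9.50 to 9.80 and GnRH animals from 9.51 to 9.72, and the difference was -0.05 (SE 0.05, adjusted p = 0.999).

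Acvr1c encodes ALK7, a type I receptor for activin B and related ligands (chr2:58267453-58357895, minus strand). It had the widest spread between animals of the 9 genes, an SD of 0.25 over the 25 libraries. Placebo females measured 7.97, 8.37, 8.52, 7.91 and 8.44, which falls into a lower pair and an upper 3, and GnRH females ran from 7.67 to 8.23 with a median of 8.13. The difference for Acvr1c was -0.19 (SE 0.14, adjusted p = 0.671, limma). Males measured 7.87 to 8.34 (median 8.25) in placebo and 7.73 to 8.66 (median 8.00) in GnRH animals, a difference of -0.14 (SE 0.12, adjusted p = 0.999). GnRH male 23, at 8.66, was the highest of all 25 animals, and the next GnRH male had 8.12. Acvr1c overlaps the antisense gene Gm13544 on the opposite strand, with the same uncertainty about strand.

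**Figure D3:**
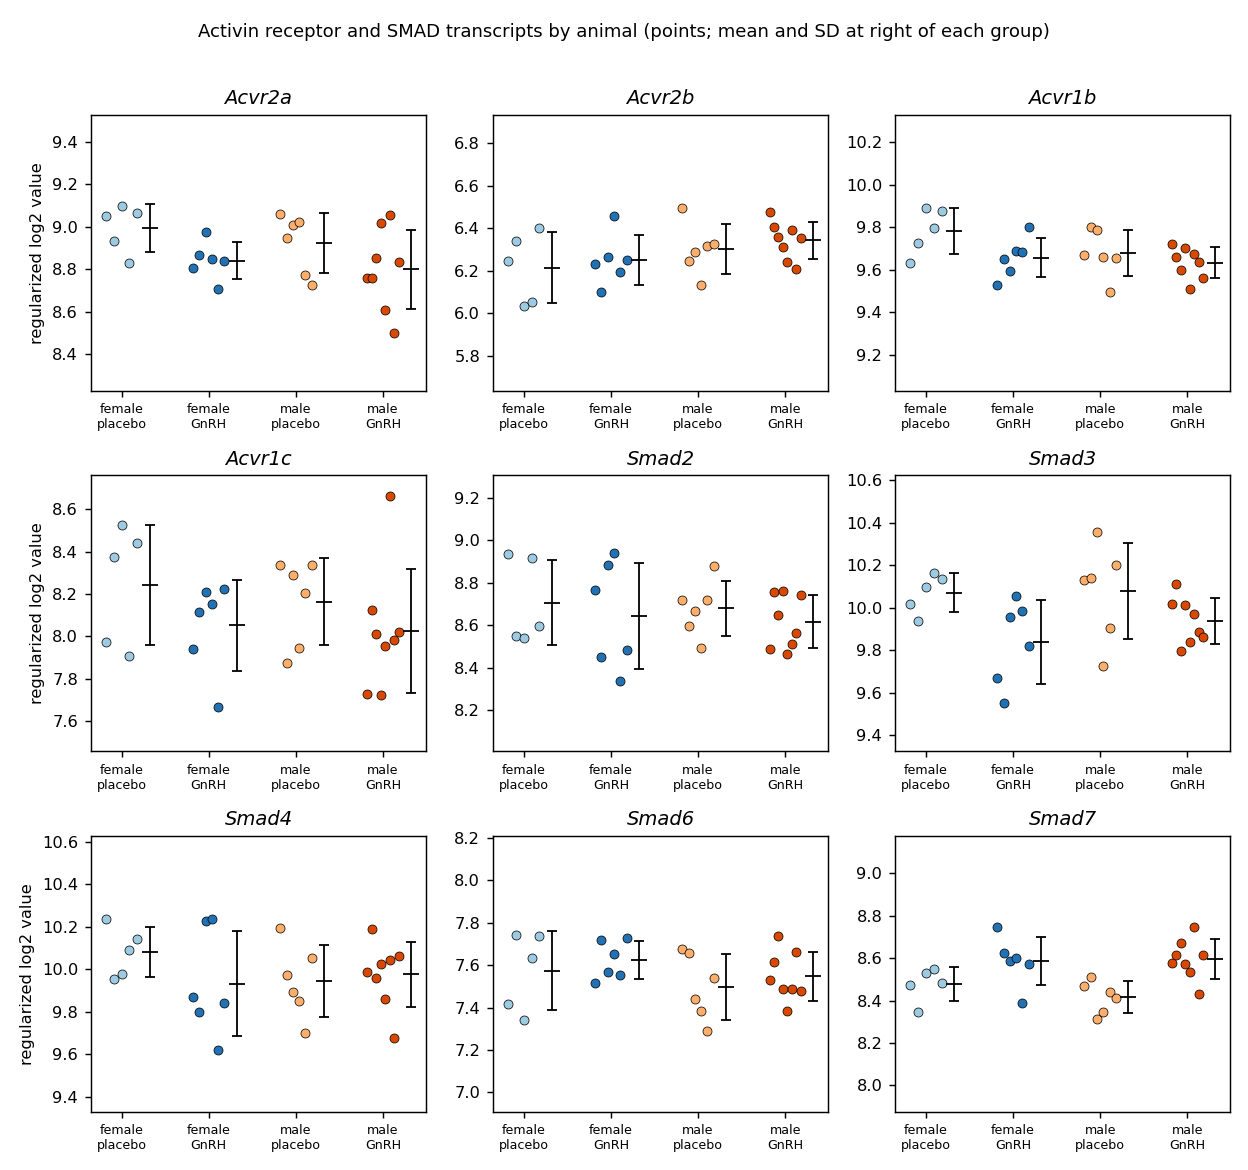
Regularized log2 value (vertical axis, each panel with its own range of the same height) of the 9 genes in each animal, by group; points are animals and bars are the group mean and SD (n = 5, 6, 6 and 8). GnRH and placebo overlap in every panel, most GnRH animals stand above placebo for Smad7, and Acvr1c has a single high GnRH male.

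Smad3 showed the widest fitted difference of the receptor-regulated pair, toward lower values with GnRH, and it did not pass. SMAD3 binds DNA directly and is the SMAD best known for activating the Fshb promoter of rodents; the gene lies at chr9:63646767-63757994, minus strand. Placebo females measured 10.02, 9.94, 10.10, 10.17 and 10.13, and GnRH females 9.67, 9.55, 9.96, 10.06, 9.98 and 9.82. All 6 GnRH females were below the placebo mean and 3 below every placebo animal, and GnRH females spread more widely. The log2 difference for Smad3 was -0.23 (SE 0.09, adjusted p = 0.444, limma), and the unadjusted exact permutation test gave p = 0.0411.

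In males Smad3 ran from 9.73 to 10.36 (median 10.13) in placebo and from 9.80 to 10.11 (median 9.93) in GnRH animals. Here the placebo group was the wider, and 7 of 8 GnRH males were below its mean. The difference was -0.14 (SE 0.08, adjusted p = 0.882; exact permutation p = 0.143), and averaged over the sexes -0.19 (95% confidence interval -0.31 to -0.06, adjusted p = 0.159, limma). The average difference of Smad3 missed the threshold in 30 of 32 other settings and passed in 2. Over the 25 fits that left out 1 animal its adjusted p reached 0.302 (limma). Without placebo male 15, the lowest placebo animal at 9.73, the average difference for Smad3 was -0.22 (adjusted p = 0.0396), and with limma's quality weights for libraries it was -0.25 (adjusted p = 0.00969), a setting in which 942 genes passed instead of 327.

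Smad2 and Smad4 did not pass either. Smad2 differed in each sex by less than the SD of any group. The Smad4 difference in females exceeded the SD of placebo females (0.12) but not that of GnRH females (0.25). Smad2, whose product needs partners to bind DNA, had group means of 8.62 to 8.71 and differed by -0.06 in both sexes (adjusted p = 0.861 in females and 0.999 in males, limma). Its placebo females measured 8.94, 8.55, 8.54, 8.92 and 8.60, and the top 2 of them stood close to the highest GnRH female at 8.94. Smad4, the partner of all receptor-regulated SMADs, differed by -0.15 in females (SE 0.10, adjusted p = 0.645) and 0.03 in males (SE 0.09, adjusted p = 0.999). GnRH females fell on either side of a gap for Smad4, with 10.23 and 10.24 in animals 8 and 9 and 9.62 to 9.87 in the other 4. The sign in males turned to -0.02 without placebo male 16. Smad2, Smad4 and Smad7 lie on chromosome 18 and had no upstream window.

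Smad7, the inhibitory SMAD that occupies type I receptors and is itself a known transcriptional target of the pathway, had the smallest adjusted p of the 9 genes in males and on average, and it missed the threshold in both. In females the placebo animals measured 8.47, 8.35, 8.53, 8.55 and 8.48, and the GnRH animals 8.74, 8.62, 8.59, 8.60, 8.39 and 8.57. Of the 6 GnRH females 5 were above every placebo animal, and animal 10 was below all but 1 of them. The difference for Smad7 in females was 0.11 (SE 0.06, adjusted p = 0.579, limma; exact permutation p = 0.108).

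Placebo males measured 8.31 to 8.51 for Smad7 (median 8.43) and GnRH males 8.43 to 8.75 (median 8.60). All 8 GnRH males were above the placebo mean and 7 of 8 above every placebo male, with animal 24 the exception. The difference was 0.18 (SE 0.05, 1.13-fold, adjusted p = 0.201, limma), and the unadjusted exact two-sided permutation test gave p = 0.00333. Averaged over the sexes it was 0.14 (SE 0.04, 95% confidence interval 0.06 to 0.23, 1.11-fold, adjusted p = 0.0747). The call turned in 4 of 32 other settings: adjusted p was 0.0484 with each library centred on its median, 0.0288 with quality weights, 0.0195 without GnRH female 10 and 0.0378 without GnRH male 24, the animals named as exceptions.

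Smad6, the inhibitory SMAD that acts mainly on bone morphogenetic protein (BMP) signals, lies at chr9:63953076-64022059, minus strand, and showed no such displacement. Placebo females measured 7.42, 7.74, 7.34, 7.64 and 7.74 and GnRH females 7.52 to 7.73. Males measured 7.29 to 7.68 in placebo and 7.38 to 7.74 with GnRH. The difference was 0.05 in each sex (adjusted p = 0.870 and 0.999, limma), and in females its sign turned without placebo animal 3.

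Sex entered the design as the other factor. The test of whether the GnRH effect differed between the sexes called none of the 9 genes, and 0% of all genes (limma, 529 of 19141 at an unadjusted p under 0.05). The difference of the effects, males minus females, was positive for all 9 genes, and it was negative for 49.7% of all genes tested. It ran from 0.0009 for Smad2 to 0.18 for Smad4, with adjusted p of at least 0.999 (limma). The 9 genes were measured in the same animals, so their signs are not independent. The intervals reached folds of 0.795 to 1.37, so a modest sex difference in response was not detectable with these numbers of animals.

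Between placebo males and placebo females none of the 9 genes passed either, where 0.047% of all genes did, and 0.345% had groups that did not overlap. Differences, males minus females, lay between -0.14 and 0.09. Within GnRH animals none passed, where 0.0522% of all genes did and 0.094% did not overlap, and differences lay between -0.08 and 0.10. All 9 genes overlapped between the sexes in both comparisons.

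Apart from treatment and sex, the 9 genes varied between animals of a group. After each group's mean was removed, 30 of the 36 pairs of genes had a positive Pearson correlation over the 25 animals, with a median of 0.23 and a range of -0.33 to 0.69. The share of positive pairs among all genes was not computed. A single pair passed after adjustment over the 36 pairs: Smad2 and Smad4, with r = 0.69 (permutation p = 0.00073, adjusted p = 0.0263) and Spearman's rho = 0.73 (permutation p = 0.00032, adjusted p = 0.0115). Without animals 9 and 10, the farthest from the median, r was 0.58. The pair passed in 17 of the 25 fits that left out 1 animal and missed the threshold without animal 1, 3, 7, 8, 9, 10, 11 or 19, with r from 0.63 to 0.75 over all 25. After quantile normalization of the libraries no pair passed. Acvr2b with Smad4 passed by rank only, with r = 0.57 (adjusted p = 0.0648) and rho = 0.62 (permutation, adjusted p = 0.0320).

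A single axis of variation ran through many genes. The first principal component of the deviations of all 19141 genes held 25.6% of their variance, and across genes its correlation with a gene rose with exon length (Spearman's rho 0.39) and fell with GC content (rho -0.21), a relation over genes that are not independent. Smad4 followed it with r = 0.90 over the 25 animals, Smad2 with 0.75 and Smad3 with 0.67, whereas Smad6, Acvr1b and Acvr1c had r of 0.17 to 0.20. A larger absolute r than that of Smad4 was found for 1.99% of all genes tested, than that of Smad2 for 12.4% and than that of Smad3 for 19.6%. With this component removed, a step added after the values were seen, Smad2 and Smad4 had r = 0.06 (adjusted p = 0.904, permutation), and the 1 pair that passed was Acvr1b with Smad2 at r = -0.74 (adjusted p = 0.0104). The median r of the 36 pairs was then 0.03, against 0.23 before.

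The relation of the 9 genes with Fshb was added after the values were seen. With group means removed, Smad3 was lower in animals with more Fshb: r = -0.58 over 25 animals (permutation p = 0.00169, adjusted over 9 relations p = 0.0152) and rho = -0.63 (permutation p = 0.00136, adjusted p = 0.0122). Without animals 1 and 25, the farthest from the median of Fshb, r was -0.61. Within groups of at least 6, r was -0.85 in GnRH females, -0.86 in placebo males and -0.27 in GnRH males. It missed the threshold without placebo male 15 (r = -0.54, adjusted p = 0.0806), in the 14 GnRH animals alone (r = -0.57, adjusted p = 0.387) and with the first component removed (r = -0.53, adjusted p = 0.0687). The other 8 genes had r between -0.40 and 0.14 with Fshb, and adjusted p of at least 0.248 by the permutation test. Only these 9 genes were related to Fshb, and the share of all genes with as large an r was not computed. Whether the relation is particular to Smad3 was therefore not tested.

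**Figure D4:**
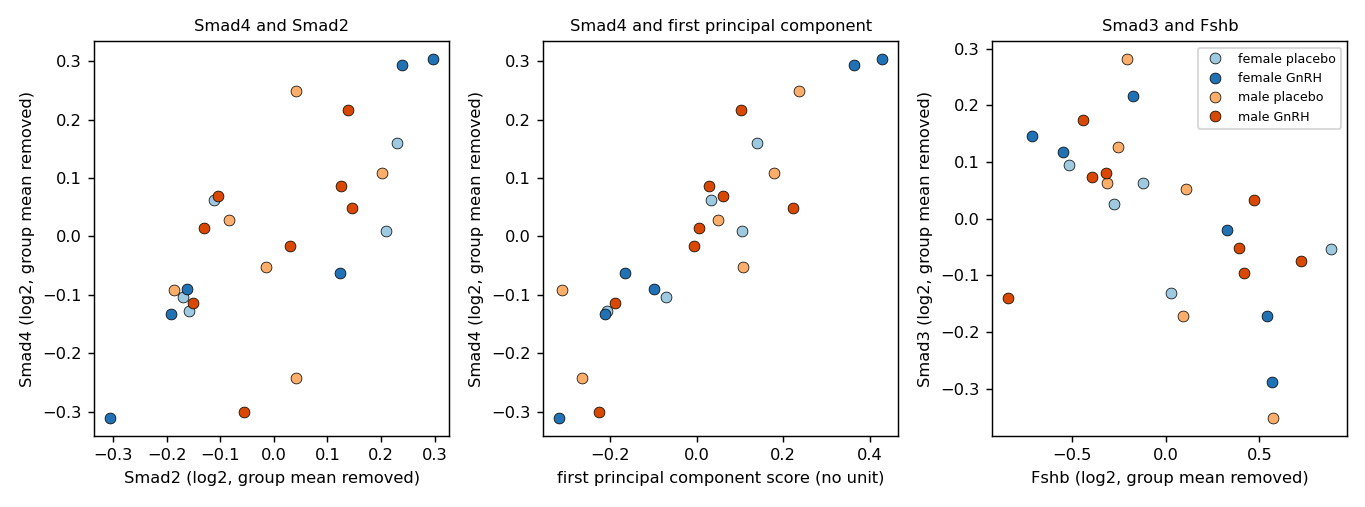
Deviations from the group mean in each of the 25 animals (log2; the first principal component score has no unit): Smad4 (vertical) against Smad2, Smad4 against the first principal component, and Smad3 against Fshb. The first 2 panels rise (r = 0.69 and 0.90) and the third falls (r = -0.58), with the 4 groups mixed along each.

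The 2 genes most like each of the 9 in their deviations, among 13571 genes, are given as a description. Their r are the 2 highest of each search, and how high r would be by chance in such a search was not computed. For Smad4 they were Rab14, a small GTPase of endosomes (r = 0.93 over 25 animals), and Crim1 (0.92), and for Smad3 the adaptor Grap2 (0.91) and Zfp608 (0.88). Smad2 was most like Pdxk, pyridoxal kinase (0.87), and Gpr135 (0.86), and Acvr2a most like Pura (0.86) and Cnot6, a deadenylase (0.85). Rab14 itself followed the first principal component with r = 0.94 and Pdxk with 0.81, as did Pura with 0.65. Less close were the nearest genes of Acvr2b, Dnm3 (0.81) and Schip1 (0.80), of Acvr1b, Nr2c1 (0.79) and Bcl11a (0.76), and of Smad7, Mdfic (0.79) and Ttc9c (0.75). Acvr1c was most like Chrdl1, a BMP antagonist (0.76), and Fstl5 (0.75), and Smad6 most like Zfp599 (0.68) and Spats2 (0.67).

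Genes upstream and downstream of the 9 were taken from lists of the wider activin, BMP and TGF-beta pathway. These lists were chosen with earlier results of these data known and hold Fshb and Gnrhr. Counts over them are therefore no test of the pathway. Of 79 tested genes, with the 9 left out, 1 rose in females and 3 rose in males, where 0.0993% and 0.449% of all genes tested rose (limma, adjusted p). Averaged over the sexes 8 rose and 1 fell, where 1.42% of all genes rose and 0.287% fell. Among 11 ligands only Tgfb1, the TGF-beta1 precursor, passed on average, with 0.32 (adjusted p = 0.0107). It ran from 7.56 to 7.87 in placebo and 7.83 to 8.32 in GnRH females, and from 7.68 to 7.92 in placebo and 7.61 to 8.32 in GnRH males, so both sexes overlapped. The activin subunits Inhba and Inhbb differed by 0.06 (adjusted p = 0.439) and 0.04 (adjusted p = 0.887).

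None of 10 ligand traps and coreceptors passed on average; Eng, endoglin of endothelium, differed by 0.14 (adjusted p = 0.0853) and the pseudoreceptor Bambi by 0.20 (adjusted p = 0.148, limma). The 7 other receptors of the family, with Acvrl1 at 0.10 (adjusted p = 0.301) the one of smallest p, and the 3 BMP SMADs Smad1 (0.08), Smad5 (-0.06) and Smad9 (-0.04) also had no call. Among 31 cofactors and regulators, Foxl2 fell by 0.30 (adjusted p = 0.0230) and Tgfb1i1, the coregulator Hic-5, rose by 0.26 (adjusted p = 0.0293). FOXL2 is the forkhead factor that works with SMADs on the Fshb promoter. Foxl2 ran from 6.99 to 7.52 in placebo and 6.58 to 7.15 in GnRH females, and from 6.99 to 7.29 in placebo and 6.60 to 7.12 in GnRH males. Tgif1, a corepressor of SMADs, differed by 0.51 and missed the threshold (adjusted p = 0.0545).

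Transcripts known to respond to the pathway made up most of the calls. On average 6 of 22 tested rose, and 20 of 22 had positive differences with a median of 0.19, against -0.0009 over all genes. Smad6 and Smad7 are among the 22. This list was chosen with earlier results of these data known, and it holds Fshb and Gnrhr. Its contrast with all genes is therefore no test of the activity of the pathway. Fshb rose by 2.42 (adjusted p = 4.55e-09), the GnRH receptor Gnrhr by 0.66 (adjusted p = 0.00109), Klf10, a TGF-beta-induced zinc finger factor, by 0.49 (adjusted p = 0.000698), and the cell cycle inhibitor Cdkn1a by 0.50 (adjusted p = 0.00388, limma). The BMP-responsive factors Id1 and Id3 rose by 0.52 and 0.36 (adjusted p = 0.00842 and 0.0345). Several of these genes also respond to other signals, among them GnRH itself. Id3 lost its call in 13 of the 25 fits that left out 1 animal (adjusted p of up to 0.0834, without placebo female 5) and Tgfb1i1 in 6 (up to 0.0623, without placebo female 1). Foxl2 lost it without placebo female 1 (0.0544) or 4 (0.0589), and the other 6 genes kept theirs in all 25. The pathway genes that passed within a sex were Fshb in females, and Fshb, Gnrhr (0.73, adjusted p = 0.0171) and Klf10 (0.51, adjusted p = 0.0189) in males. The male call of Gnrhr was lost without placebo male 14 (0.0703) or 16 (0.0551), and that of Klf10 without placebo male 13 (0.0735), 14 (0.0609) or 17 (0.0565). With no filter on low values, Foxl2 (0.0543), Tgfb1i1 (0.0619) and Id3 (0.0941) missed the threshold on average, and Gnrhr (0.0670) and Klf10 (0.0676) in males. That setting adds genes to both the adjustment and the variance prior, and their parts were not tested.

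**Figure D5:**
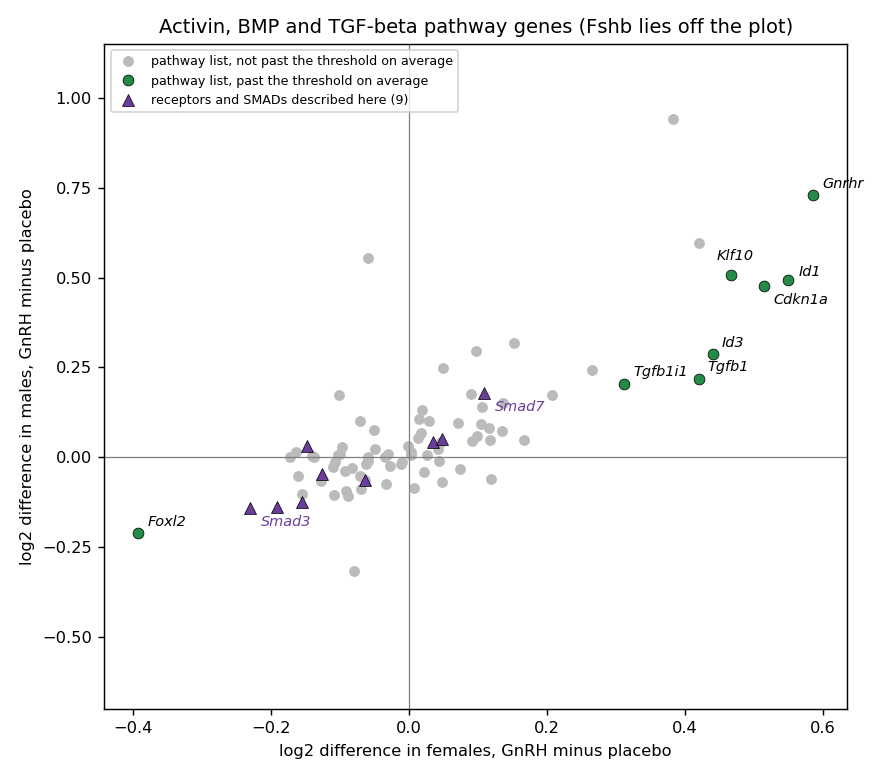
Log2 difference of GnRH minus placebo in females (horizontal) and males (vertical) for the pathway genes (circles; coloured where the average of the sexes passed the threshold) and the 9 receptors and SMADs (triangles); Fshb, at 2.07 and 2.77, is off the plot. The triangles lie within 0.25 of 0 on both axes, below the called genes at the upper right.

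Markers of some cell types also differed between GnRH and placebo, and their relation with the genes above across animals was not tested. On average all 10 endothelial markers had positive differences (median 0.14), and Emcn (0.25), Tie1 (0.30) and Plvap (0.18) rose (adjusted p = 0.00289, 0.00220 and 0.0238, limma). Plvap missed the threshold without placebo female 1 (0.0602) or GnRH female 6 (0.0531), and after quantile normalization (0.0514). Their summed level ran, in log2, from 12.94 to 13.08 in placebo and 13.07 to 13.30 in GnRH females, and from 12.95 to 13.02 in placebo and 12.99 to 13.30 in GnRH males. Eng, Acvrl1, Smad6, Smad7, Id1, Id3 and Tgfb1 are also known from endothelium, and the part of the endothelial markers in their values was not tested. Of the 9 gonadotrope markers, Fshb, Gnrhr and Lhb (0.38, adjusted p = 0.0141) rose, and Foxl2, Gata2 (-0.49, adjusted p = 0.000638) and Nr5a1 (-0.38, adjusted p = 0.0222) fell; Nr5a1 missed the threshold without placebo female 4 (0.0571) and with no filter on low values (0.0645). Blood markers were positive on average in 5 of 5 genes (median 0.20) and macrophage markers in 6 of 7 (median 0.07), none of them past the threshold. Over all genes tested, 50.6% of the average differences were negative. The blood list is mostly globins, whose transcripts were depleted before sequencing, so it does not measure blood content. Macrophage markers were positive in 7 of 7 genes in females (median 0.15) but in 3 of 7 in males (median -0.03). Lists of the remaining cell types had no call either. Some of their medians were as large, such as 0.135 in females and -0.187 in males for melanotropes. The summed levels of the blood and of the macrophage markers overlapped between GnRH and placebo in both sexes, and their part in the values was not tested.

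GnRH males 18 and 21 were left out together in a setting chosen from earlier results on these data. They were not alone in standing apart: Cyr61, a gene of the responsive list named after its values were seen, measured 10.51, 9.72 and 10.75 in GnRH males 18, 20 and 21 and 8.06 to 8.44 in the other 5. Without 18 and 21, the average difference of Smad7 had adjusted p = 0.113 and none of the 9 genes passed. Foxl2 (adjusted p = 0.0540), Tgfb1i1 (0.0589) and Id3 (0.0841) missed the threshold there on average and Klf10 (0.0606) in males, and Tgif1 passed (0.0363), as it did in 8 further settings.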

How the data were processed

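Polyadenylated RNA from 25 pituitaries was sequenced after depletion of ribosomal and globin transcripts, with RNA integrity numbers above 8.2 (median 9.1), per the labels' protocols. The deposited values are regularized log2 values, per the name the authors gave the table, scaled between libraries and shrunken before deposit. The submitters' processing notes name mm10 as the build, and STAR, featureCounts and bcl2fastq as tools; versions, strand setting and annotation: not given in the sources used here. Without read totals the depth is unknown, and counting intervals could not be given. The number of animals limits the precision.

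Of 47069 genes, 13765 were at 0 in all libraries, and tests covered the 19141 whose mean was 3 or more. All 25 libraries entered 1 linear model, with a mean for each of the 4 groups, in limma 3.58.1 under R 4.3.3 (21 residual degrees of freedom, variance prior with a trend on the mean). Tests of 6 contrasts were two-sided and adjusted by Benjamini-Hochberg over these 19141 genes (threshold 0.05); the adjusted p of a difference is limma's. The scripts were tested on simulated data. Correlations used 100000 permutations within groups, and single genes an exact permutation test. Libraries correlated pairwise at 0.992 to 0.998, and over the genes tested 0% of values were equal between any 2 of them. Exon lengths came from GENCODE M21, taken as the union of a gene's exons.

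The genes, lists, naming rule and most alternatives were chosen with earlier results of these data known. Named were the 9 genes, Fshb, pathway and marker genes past the threshold, the 4 of each pathway list with the smallest p in each sex (those needed for the account), and the 2 genes most like each of the 9. Alternatives were other scalings, filters, variance priors, weights and leaving out animals. Labels give no batch or date. The design text speaks of 5 to 7 animals per condition, whereas the labels give 8 GnRH males, and the labels were followed. Each number marks 1 animal, per the labels; whether animals shared litters or cages is not stated in the labels.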

Additional observations from a re-analysis of the deposited data

Results flagged for a closer look

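In 1 of 36 sets of values (9 genes in 4 groups), 1 animal lay far from the others of its group. Acvr1c was 8.66 in GnRH male 23, and the nearest other GnRH male had 8.12, a gap of 0.573 of the group's range where Dixon's critical value for 8 animals is 0.526. Chance gives about 1 such set in 20, so a single one among 36 is no more than chance gives. Without this animal the GnRH difference of Acvr1c averaged over the sexes was -0.21 instead of -0.16, with adjusted p = 0.234 instead of 0.500 (limma).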

How the results depend on the processing

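No paired analysis was possible because each animal number occurs once and nothing in the labels pairs animals across groups. Of the 9 genes, none passed in either sex alone, in the sex comparisons or in the difference between sexes in any setting run. For the effect averaged over the sexes the count of 0 became 1 with each library centred on its median (Smad7), 2 with quality weights (Smad3 and Smad7), and 0 to 1 when each animal was left out: Smad7 without GnRH female 10 or GnRH male 24, Smad3 without placebo male 15. The cause was not tested. Signs turned for differences near 0: Acvr2b in females without placebo animal 3 (-0.0101) or 4 (-0.0057) or GnRH animal 9 (-0.0064), Smad6 in females without placebo animal 3 (-0.0098) and Smad4 in males without placebo animal 16 (-0.0169), with ranges over the left-out animals of -0.0101 to 0.0816, -0.0098 to 0.0892 and -0.0169 to 0.0814.

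The count of pathway genes past the threshold ran from 1 to 4 in females when each animal was left out (4 without GnRH animal 10, and 1 in every other setting). In males it was 1 with no filter on low values and 1 to 3 when each animal was left out. Without the filter more genes enter both the adjustment and the variance prior, and their parts were not tested. The count of correlated pairs was 0 after quantile normalization, 0 in the 14 GnRH animals, where fewer animals enter, and 0 to 2 when each animal was left out. Over all genes, calls ran from 4 to 67 in females and 46 to 153 in males when each animal was left out, and from 7 to 62 and 38 to 239 in the other settings, against 19 and 95. For the average they ran from 235 to 389 and from 223 to 942, against 327. Depth could not be weighed, and the shrinkage of the values understates differences of the lower genes, such as Acvr2b.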
